A study of Mus musculus with 6 samples.

Results

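The 9 genes described here encode the main enzymes, receptors and effectors of 3 pathways that set vascular tone in the lung, together with the angiotensin converting enzyme. They are Edn1, Ece1 and Ednra of the endothelin pathway, Nos3, Prkg1 and Pde5a of the nitric oxide and cGMP pathway, Ptgis and Ptgir of the prostacyclin pathway, and Ace. They were taken by gene symbol from the deposited table, which holds 49568 symbols, and all 9 were present and passed the filter on low counts. Whole lungs of 3 TNF-Tg and 3 WT female mice, 4 months old and on a C57BL/6 background, were sequenced with 1 poly(A) RNA library per mouse and no pooling. TNF-Tg mice carry 1 copy of the human TNF gene and develop erosive arthritis and pulmonary vascular disease, while WT mice are littermates without the transgene. The promoter that drives the transgene is not given in the sources used here. The comparison asks how these vasoactive genes differ in the lungs of mice with this disease.

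Endothelin-1 is made as a precursor, cut to its active form by the protease endothelin converting enzyme 1 (Ece1), and contracts smooth muscle through the receptor Ednra, while the endothelial receptor Ednrb clears the peptide and promotes relaxation. Nitric oxide from the endothelial synthase Nos3 activates soluble guanylyl cyclase in smooth muscle, and the cGMP formed acts through the kinase Prkg1 until Pde5a degrades it. Prostacyclin, made by the synthase Ptgis, relaxes smooth muscle through its receptor Ptgir and restrains platelets. Ace, on the surface of lung capillary endothelium, converts angiotensin I to the vasoconstrictor angiotensin II and degrades bradykinin. These pathways are the targets of the established drugs for pulmonary hypertension and of the ACE inhibitors.

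The total counts ranged from 25396923 to 32529408 per lung, so that 3 counts, taken as the smallest detectable level, stood at 0.0922 to 0.118 CPM, the count scaled to the size of the library. This floor covers counting error only. A pair of libraries stood apart and bear on some of the values below. In TNF-Tg replicate 1, 5.22% of the counts were of Gm42418, which took 0.0774% to 0.274% elsewhere. WT replicate 1 had 56570 counts of the squamous epithelium gene Krt4 and 45433 of Krt13, against at most 8 of either in any other lung. The mouse gene Tnf had 106, 213 and 405 counts in TNF-Tg lungs and 16, 14 and 35 in WT lungs. Whether reads of the human transgene were counted there is not given in the sources used here.

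Between TNF-Tg and WT lungs 7 of the 9 vasoactive genes differed, with an adjusted p under 0.05 by edgeR over all 19199 genes tested. Ptgir alone was higher in TNF-Tg lungs, by 7.56-fold. Ace, Prkg1, Ece1, Pde5a, Ptgis and Ednra were lower, with Ace at 28.6% and Prkg1 at 38.2% of the WT level. Edn1 and Nos3 did not pass the test. Over all genes tested 47.4% were called, 24.0% as higher and 23.4% as lower, so that a called gene was common in this comparison. The groups did not overlap for the same 7 vasoactive genes, and for 58.7% of all genes tested, of which TNF-Tg lungs lay below WT lungs in 28.2% of genes and above in 30.5%. The median log2 fold change was -0.62 over the 9 genes and 0.03 over all genes tested. Without both replicate 1 lungs 5 of the 9 were called, and Ednra and Pde5a were not. In whole lung, fewer cells of a type and less RNA per cell cannot be told apart.

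**Figure D1:**
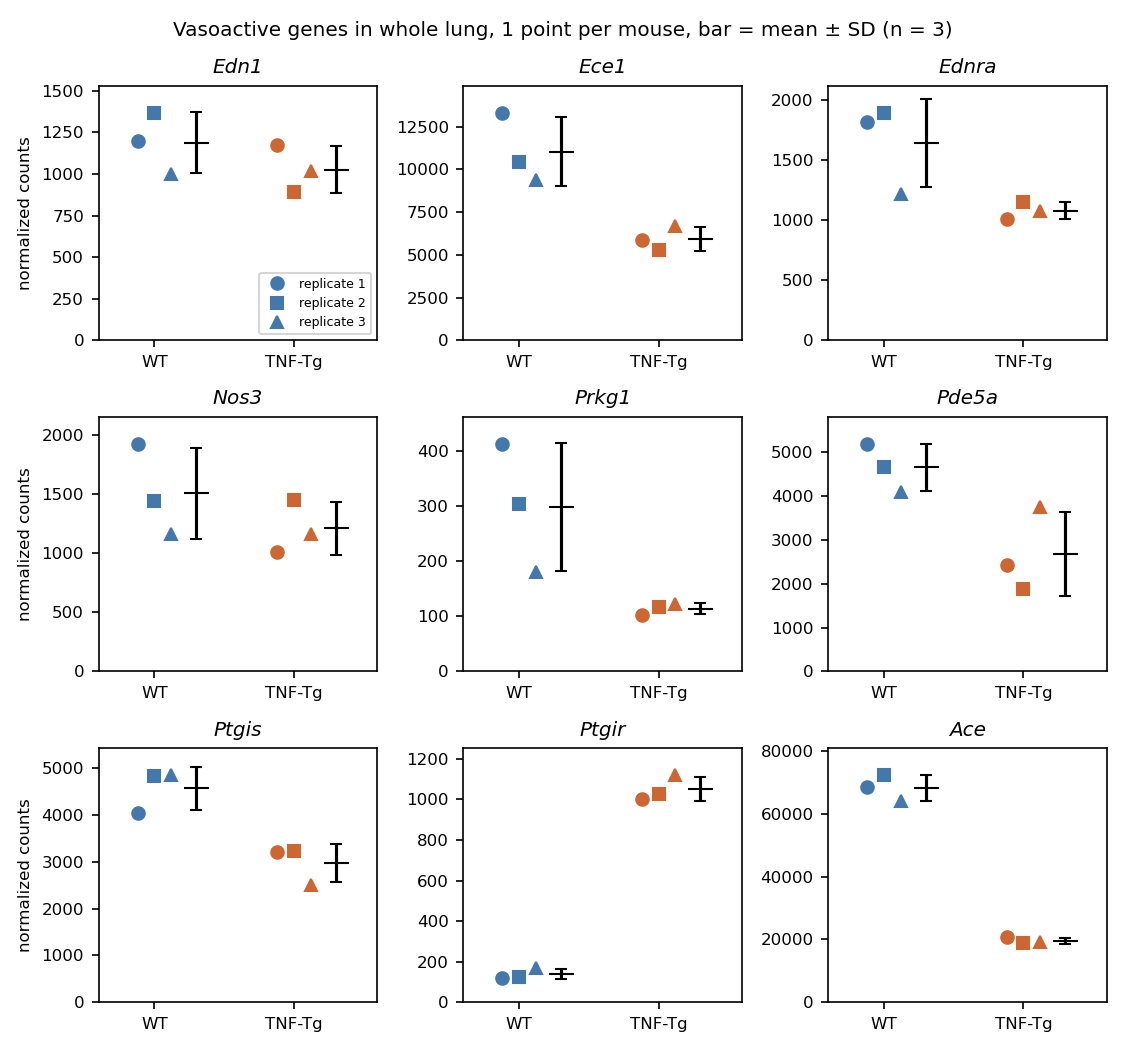
Normalized counts of the 9 vasoactive genes (y axis, from 0) in each WT (blue) and TNF-Tg (orange) lung, with the mean and SD of each group (n = 3) beside the points and the replicate number as the point's shape. Ptgir is between 1003 and 1118 in TNF-Tg lungs and at most 168 in WT lungs, Ace is at most 20652 against at least 63856, and the groups overlap for Edn1 and Nos3.

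The promoters of the gene that rose, the gene that fell most, and the peptide precursor that did not pass the test are shown because their results differed in this way. The windows run from 250 bases before to 50 bases after the annotated start site, are taken from RefSeq on GRCm38.p6, and are written 5′ to 3′ along the gene. That table held windows for 7 of the 9 genes and none for Nos3 or Ptgis. Capitals mark matches, on either strand, to AGATAA (the GATA motif), GAGGAA (the core bound by PU.1, the myeloid factor of the ETS family), GGGCGG (the GC box), ACGTG (the core of the hypoxia response element), TGANTCA (AP-1) or GGANTTTCC (NF-kB).
Ptgir, chr7:16906240-16906539, plus strand: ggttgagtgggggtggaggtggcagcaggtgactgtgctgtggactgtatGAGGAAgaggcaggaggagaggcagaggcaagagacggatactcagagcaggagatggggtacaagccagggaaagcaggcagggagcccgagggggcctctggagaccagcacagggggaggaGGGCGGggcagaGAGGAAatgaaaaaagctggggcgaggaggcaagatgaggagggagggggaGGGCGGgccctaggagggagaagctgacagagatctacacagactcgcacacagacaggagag
Ace, somatic start, chr11:105967698-105967997, plus strand: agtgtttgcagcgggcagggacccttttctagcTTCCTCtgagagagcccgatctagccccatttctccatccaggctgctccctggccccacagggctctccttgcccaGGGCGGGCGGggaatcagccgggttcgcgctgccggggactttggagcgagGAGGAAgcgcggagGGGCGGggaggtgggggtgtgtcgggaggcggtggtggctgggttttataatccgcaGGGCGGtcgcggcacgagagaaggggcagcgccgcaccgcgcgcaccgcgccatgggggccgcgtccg
Edn1, chr13:42301226-42301525, plus strand: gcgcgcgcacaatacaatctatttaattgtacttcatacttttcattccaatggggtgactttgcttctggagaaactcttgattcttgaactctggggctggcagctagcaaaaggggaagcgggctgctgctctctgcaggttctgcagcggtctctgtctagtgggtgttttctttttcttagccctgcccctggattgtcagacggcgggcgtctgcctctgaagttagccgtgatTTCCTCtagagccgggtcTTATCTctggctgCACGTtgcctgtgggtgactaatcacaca
The Ptgir window held GAGGAA at 200 and 64 bases before the start site and GGGCGG at 76 and 13 bases before it. The Ace window held GGGCGG at 140, 136, 75 and 18 bases before the start site, the first pair overlapping, and GAGGAA on the plus strand 89 bases before it and on the minus strand 217 bases before it. The Edn1 window held the GATA motif on the minus strand 8 bases after the start site, ACGTG 21 bases after it and GAGGAA 10 bases before it, both also on the minus strand. Of the 32851 windows of this length in the table, 28.3% held GAGGAA, 35.7% GGGCGG, 11.2% AGATAA, 19.6% ACGTG, 7.81% TGANTCA and 1.25% GGANTTTCC. The last pair had no match in any of the 12 windows of these genes. The 3 windows were 62.0%, 69.7% and 51.3% G and C. A match is a run of letters and no evidence of binding, and the lack of a match to these exact patterns does not exclude a site.

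Within the endothelin pathway, the peptide's gene did not pass the test, and the converting enzyme and both receptors were lower in TNF-Tg lungs. Edn1 (ENSMUSG00000021367.8, chromosome 13 of mm10, 42301476 to 42307990, plus strand) had 1173, 890 and 1015 normalized counts in TNF-Tg lungs and 1196, 1364 and 998 in WT lungs. Normalized counts are counts divided by the library total as scaled by edgeR's TMM method, times the mean of that scaled total. The groups overlapped (log2 fold change -0.21 with a standard error, SE, of 0.15, adjusted p = 0.271 by edgeR). Ece1 (ENSMUSG00000057530.14, chromosome 4, 137862237 to 137965229, plus strand) had 5853, 5296 and 6664 normalized counts in TNF-Tg lungs against 13277, 10448 and 9366 in WT lungs. Every TNF-Tg lung lay below every WT lung, at 53.8% of the WT level (log2 fold change -0.89, SE 0.16, adjusted p = 0.00219). Ednra (ENSMUSG00000031616.7, chromosome 8, 77663031 to 77724464, minus strand) had 1009, 1153 and 1080 against 1816, 1890 and 1219. Its groups lay close together at WT replicate 3, below which every TNF-Tg lung lay (log2 fold change -0.60, SE 0.16, adjusted p = 0.0171). The call for Ednra was lost without WT replicate 2 (log2 fold change -0.49, adjusted p = 0.0641 by edgeR).

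Of the 12 genes listed for the endothelin pathway 11 were tested, of which 1 was higher and 7 were lower, and the median log2 fold change was -0.78. The share called was 72.7%, against 47.4% of all genes tested (24.0% higher and 23.4% lower). The largest falls were in Edn3, a second endothelin, and in Ednrb. Edn3 had 69.9, 88.9 and 61.4 normalized counts in TNF-Tg lungs and 422, 426 and 403 in WT lungs (log2 fold change -2.50, SE 0.18, adjusted p = 2.53e-05 by edgeR). Ednrb had 274, 335 and 342 against 1734, 1603 and 1357 (log2 fold change -2.30, SE 0.14, adjusted p = 1.29e-05), and it is also a marker of aerocytes, the capillary cells of gas exchange. Mme, the peptidase neprilysin that degrades endothelin-1 and other peptides, was lower (log2 fold change -1.10). Ece2, a second converting enzyme of low level, was the 1 gene that rose (log2 fold change 0.90), a call lost without both replicate 1 lungs (adjusted p = 0.0553 by edgeR). Edn2 had at most 6 counts in any lung and was not tested.

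The ratio of the receptors was apart in the groups. There were 3.68, 3.44 and 3.16 Ednra counts per Ednrb count in the 3 TNF-Tg lungs and 1.05, 1.18 and 0.899 in the WT lungs. Every TNF-Tg lung lay above every WT lung, a difference of 1.72 on the log2 scale (two-sided exact permutation test, p = 0.1, adjusted p = 0.133 over 8 ratios). With 3 lungs in each group the exact permutation test cannot go below p = 0.1, so it cannot pass 0.05 for any ratio given here. Ece1 counts per Edn1 count were 4.99, 5.95 and 6.57 in TNF-Tg lungs and 11.1, 7.66 and 9.39 in WT lungs, again without overlap (log2 difference -0.68, exact permutation p = 0.1, adjusted p = 0.133). The ratio of Edn1 to Nos3 counts, a constrictor's gene over that of a dilator's synthase, overlapped between the groups. It was 1.16, 0.612 and 0.875 in TNF-Tg lungs and 0.623, 0.947 and 0.861 in WT lungs (log2 difference 0.10, exact permutation p = 0.9), and the difference changed sign without TNF-Tg replicate 1 (-0.12) or WT replicate 1 (-0.08).

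**Figure D2:**
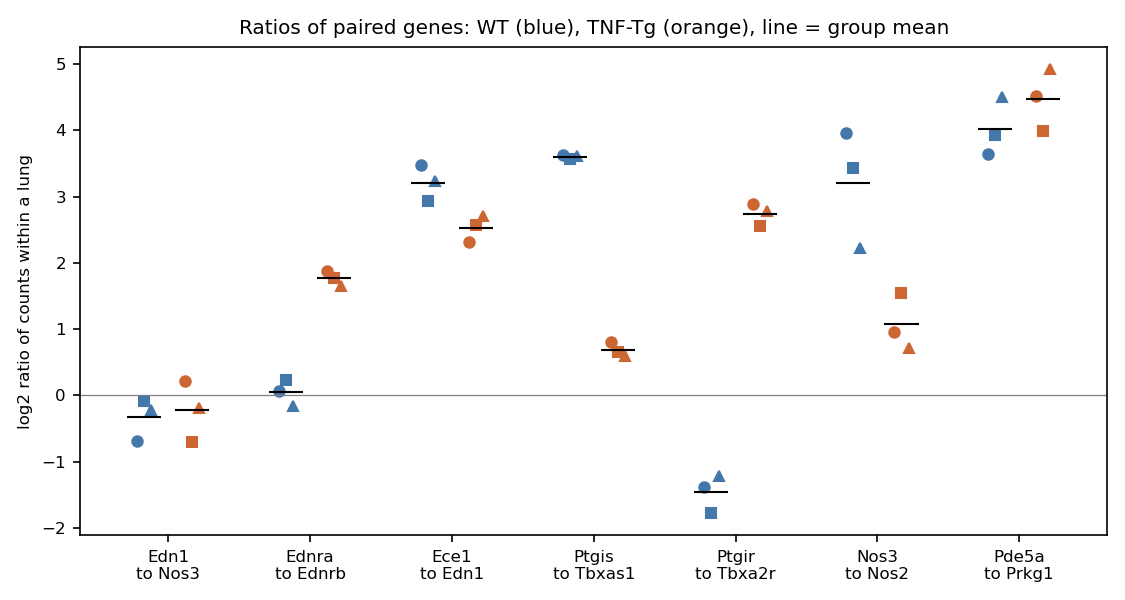
Log2 ratio of the counts of paired genes within each lung (y axis), for 7 of the 8 pairs (x axis), in WT (blue) and TNF-Tg (orange) lungs, with a line at each group mean. The groups overlap for Edn1 to Nos3 and Pde5a to Prkg1 and are apart for the other 5 pairs shown, with Ptgir to Tbxa2r at a mean of 2.74 in TNF-Tg and -1.46 in WT lungs.

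In the nitric oxide and cGMP pathway the synthase did not pass the test, and the kinase and the phosphodiesterase were lower. Nos3 (ENSMUSG00000028978.12, chromosome 5, 24364810 to 24384474, plus strand) had 1014, 1454 and 1160 normalized counts in TNF-Tg lungs and 1922, 1440 and 1159 in WT lungs. The groups overlapped at all but the highest WT lung (log2 fold change -0.32, SE 0.20, adjusted p = 0.224 by edgeR). Without both replicate 1 lungs the log2 fold change was -0.03. Prkg1 (ENSMUSG00000052920.15, chromosome 19, 30564489 to 31765033, minus strand) had the lowest mean of the 9 genes per length, with 78, 113 and 129 counts in TNF-Tg lungs and 432, 317 and 203 in WT lungs. In normalized counts these were 103, 117 and 122 against 413, 304 and 180. The TNF-Tg lungs lay close together and the WT lungs were spread over a wide range above them (log2 fold change -1.39, SE 0.29, adjusted p = 0.00504). Without WT replicate 1, the highest, the log2 fold change of Prkg1 was -1.11 (adjusted p = 0.0112 by edgeR).

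Pde5a (ENSMUSG00000053965.10, chromosome 3, 122728947 to 122859374, plus strand) had 2420, 1884 and 3749 normalized counts in TNF-Tg lungs and 5187, 4678 and 4107 in WT lungs. TNF-Tg replicate 3 lay near the WT lungs and the other TNF-Tg lungs well below. Its log2 fold change was -0.79 (SE 0.23, adjusted p = 0.023 by edgeR), and the call was lost without any 1 of 4 lungs. The adjusted p was 0.0677 without TNF-Tg replicate 1, 0.0587 without TNF-Tg replicate 2, 0.0606 without WT replicate 1 and 0.0599 without WT replicate 2. The ratio of Pde5a to Prkg1 counts overlapped between the groups, at 23.5, 16.1 and 30.8 in TNF-Tg lungs and 12.6, 15.4 and 22.8 in WT lungs (exact permutation p = 0.2).

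Of 33 genes listed for the nitric oxide and cGMP pathway, all tested, 8 were higher, 12 were lower and 13 did not pass, and the median log2 fold change was -0.25. The share called was 60.6%, against 47.4% of all genes tested (24.0% higher and 23.4% lower). Genes that rose were about as common in this list as among all genes. Around the synthase, the inducible form Nos2 rose from 122, 132 and 246 normalized counts in WT lungs to 521, 496 and 707 in TNF-Tg lungs (log2 fold change 1.78, SE 0.28, adjusted p = 0.00138 by edgeR). There were 1.95, 2.93 and 1.64 Nos3 counts per Nos2 count in TNF-Tg lungs and 15.7, 10.9 and 4.71 in WT lungs (log2 difference -2.13, exact permutation p = 0.1, adjusted p = 0.133). The neuronal form Nos1 had 8, 2 and 6 counts in TNF-Tg lungs and 452, 18 and 16 in WT lungs, with a log2 fold change of -4.69 (adjusted p = 0.0308). Its call was lost without WT replicate 1, which holds the squamous and skeletal muscle genes (log2 fold change -1.43, adjusted p = 0.104 by edgeR), without any 1 TNF-Tg lung (adjusted p = 0.066, 0.101 and 0.0915), with limma-voom and with a robust dispersion.

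The subunits of soluble guanylyl cyclase, Gucy1a3 (now named Gucy1a1) and Gucy1b3 (now Gucy1b1), did not pass the test, with log2 fold changes of -0.55 (adjusted p = 0.0807 by edgeR) and -0.34 (adjusted p = 0.124). Both were called lower without TNF-Tg replicate 3 or without WT replicate 3, and Gucy1a3 also by DESeq2 and with no filter on low counts. The membrane guanylyl cyclase Npr1, the receptor of atrial natriuretic peptide, fell from 8235, 8434 and 7861 to 2412, 2289 and 2720 normalized counts (log2 fold change -1.72, SE 0.11, adjusted p = 1.46e-05). The clearance receptor Npr3 fell too (log2 fold change -2.65), from widely spread WT values of 5394, 3325 and 1473 normalized counts. Of the 6 phosphodiesterases in this list, Pde5a, Pde9a (log2 fold change -1.99) and Pde3a (log2 fold change -1.31) fell, and Pde2a (log2 fold change 1.81) and Pde1c (log2 fold change 2.39) rose. Pde1a did not pass (log2 fold change 0.31, adjusted p = 0.238 by edgeR). Pde5a and Pde9a are specific for cGMP and the others degrade both cyclic nucleotides, so enzymes of the latter kind were found in both directions.

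**Figure D3:**
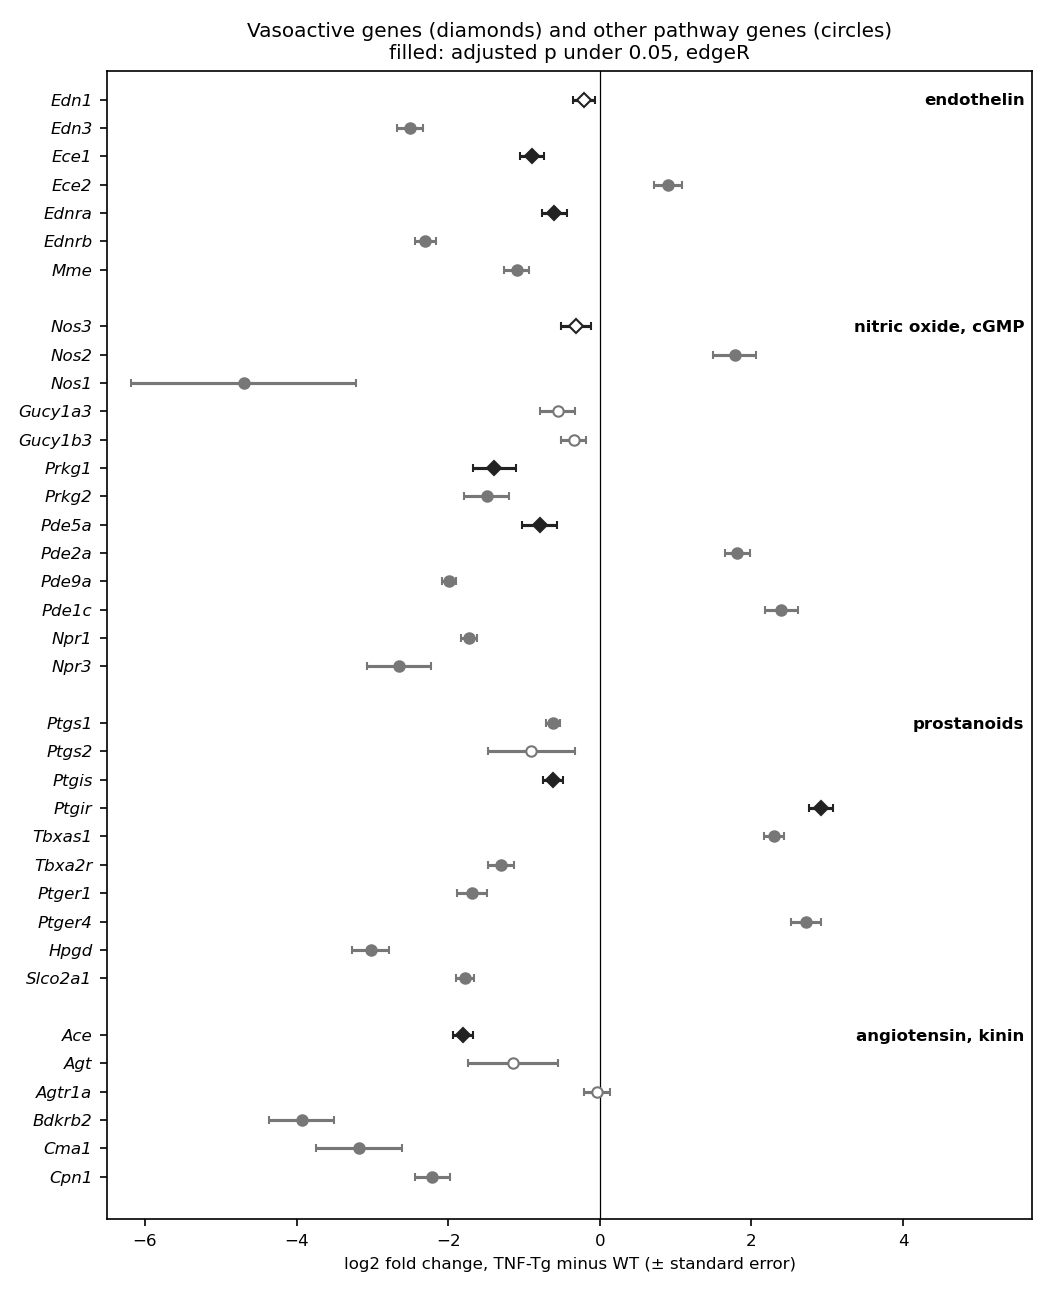
Log2 fold change, TNF-Tg minus WT, with its standard error (x axis) for the 9 vasoactive genes (diamonds) and other genes of their pathways (circles), filled where edgeR's adjusted p is under 0.05 (n = 3 lungs per group). Ptgir at 2.92 is the rightmost gene and Nos1 at -4.69, which rests on WT replicate 1, the leftmost.

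The prostacyclin pathway showed opposite changes of enzyme and receptor. Ptgis (ENSMUSG00000017969.13, chromosome 2, 167191805 to 167240604, minus strand) had 3207, 3215 and 2510 normalized counts in TNF-Tg lungs and 4029, 4814 and 4839 in WT lungs. Every TNF-Tg lung lay below every WT lung, at 65.3% of the WT level (log2 fold change -0.62, SE 0.13, adjusted p = 0.00584 by edgeR). Ptgir (ENSMUSG00000043017.9, chromosome 7, 16906490 to 16910905, plus strand) had 761, 993 and 1184 counts in TNF-Tg lungs against 128, 131 and 189 in WT lungs. In normalized counts these were 1003, 1027 and 1118 against 122, 126 and 168, so that the lowest TNF-Tg lung lay far above the highest WT lung (log2 fold change 2.92, SE 0.15, adjusted p = 8.03e-06). No other gene of the annotation overlaps Ptgir.

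Of 27 genes listed for prostacyclin and other prostanoids, all tested, 6 were higher, 12 were lower and 9 did not pass, and the median log2 fold change was -0.30. The share called was 66.7%, against 47.4% of all genes tested (24.0% higher and 23.4% lower). Genes that rose were about as common here as among all genes. Ptgs1, the constitutive cyclooxygenase, fell (log2 fold change -0.61), and Ptgs2, the inducible one, did not pass, with 119, 26.9 and 22.7 normalized counts in TNF-Tg lungs and 98.4, 90.1 and 119 in WT lungs. Ptgs2 was called lower without TNF-Tg replicate 1 (log2 fold change -2.08, adjusted p = 0.00139 by edgeR), without both replicate 1 lungs and by limma-voom. Tbxas1, which makes the constrictor thromboxane, rose from 323, 404 and 395 to 1826, 2034 and 1657 normalized counts (log2 fold change 2.30, SE 0.13, adjusted p = 9.89e-06 by edgeR). The thromboxane receptor Tbxa2r fell (log2 fold change -1.30). In both arms the enzyme and its receptor thus moved in opposite directions.

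There were 1.76, 1.58 and 1.51 Ptgis counts per Tbxas1 count in TNF-Tg lungs and 12.5, 11.9 and 12.2 in WT lungs (log2 difference -2.91, exact permutation p = 0.1, adjusted p = 0.133). Conversely, there were 7.53, 5.91 and 6.96 Ptgir counts per Tbxa2r count in TNF-Tg lungs and 0.379, 0.289 and 0.426 in WT lungs (log2 difference 4.20, exact permutation p = 0.1, adjusted p = 0.133). Both ratios lay apart between the groups in every lung. The prostaglandin E2 receptor Ptger4, which like Ptgir raises cyclic AMP, rose by a similar amount (log2 fold change 2.72, SE 0.19, adjusted p = 2.74e-05), while Ptger1, which signals through calcium, fell (log2 fold change -1.68). The largest fall was in Hpgd, the enzyme that inactivates prostaglandins, at 1026, 555 and 1056 against 6283, 8154 and 7011 normalized counts (log2 fold change -3.02). The prostaglandin transporter Slco2a1, which carries prostaglandins into cells for that step, also fell (log2 fold change -1.78).

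Ace (ENSMUSG00000020681.14, chromosome 11, 105967945 to 105989964, plus strand) had the highest level per length of the 9 genes and was the one that fell most. It had 20652, 18737 and 19131 normalized counts in TNF-Tg lungs and 68461, 72185 and 63856 in WT lungs. Each group was tight and the groups were far apart (log2 fold change -1.81, SE 0.13, adjusted p = 3.23e-05 by edgeR).

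Of 23 genes listed for the renin-angiotensin and kinin systems 17 were tested, of which 3 were higher, 8 were lower and 6 did not pass, and the median log2 fold change was -0.87. The share called was 64.7%, against 47.4% of all genes tested (24.0% higher and 23.4% lower). The angiotensin receptor Agtr1a did not pass and overlapped between the groups (282, 391 and 376 normalized counts in TNF-Tg lungs against 406, 362 and 308, adjusted p = 0.879 by edgeR). The precursor Agt had at most 51 counts in any lung and did not pass (adjusted p = 0.142), though it was called lower without TNF-Tg replicate 3, and renin (Ren1) had 1 count in 1 WT lung and none elsewhere. The bradykinin receptor Bdkrb2 fell from 136, 113 and 74 counts to 7, 3 and 8 (log2 fold change -3.93, SE 0.43, adjusted p = 0.000212). Cma1, the mast cell chymase, fell from 77, 55 and 53 counts to 2, 2 and 14 (log2 fold change -3.17, or -4.57 without TNF-Tg replicate 3), and Cpn1, a carboxypeptidase that inactivates kinins, fell as well (log2 fold change -2.21). The genes that rose were Anpep, an aminopeptidase (log2 fold change 0.86), Atp6ap2, the prorenin receptor (log2 fold change 0.79), and Agtrap, a receptor-associated protein (log2 fold change 0.49). The call for Agtrap was lost without any 1 of TNF-Tg replicates 1 and 2 and WT replicates 1, 2 and 3 (log2 fold changes 0.32 to 0.51, adjusted p = 0.0534 to 0.0679 by edgeR).

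To compare levels between genes, normalized counts were divided by the length of all annotated exons of a gene, a length that can exceed that of the transcripts in use. On this scale Ace stood at 12890 ± 789 normalized counts per kb (SD, n = 3) in WT lungs. Ece1 (2081 ± 381) and Ptgis (1777 ± 180) followed, with ranges over the lungs that overlapped. Edn1 (555 ± 85.6), Pde5a (474 ± 55.0), Nos3 (365 ± 93.4) and Ednra (300 ± 67.2) formed a chain in which each overlapped the next. Ptgir (41.6 ± 7.64) and Prkg1 (27.5 ± 10.7) were lowest and overlapped. In TNF-Tg lungs Ace was still highest (3690 ± 191), and Ptgis (1160 ± 158) and Ece1 (1120 ± 130) overlapped as before. Ptgir, at 315 ± 18.1, now overlapped Nos3 (293 ± 54.2), and Prkg1 stayed lowest (10.5 ± 0.904). Ptgir thus stood among the middle genes of the list in TNF-Tg lungs and among the lowest in WT lungs.

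**Figure D4:**
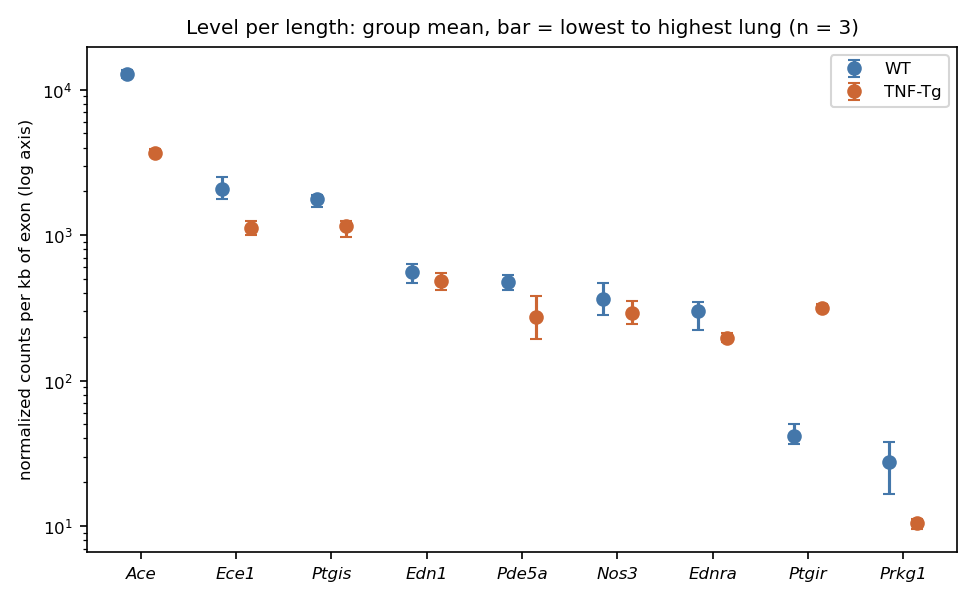
Normalized counts per kb of exon (y axis, log scale) of the 9 vasoactive genes, ordered by their WT level, with the group mean as a point and the lowest and highest lung as a bar (n = 3). WT lungs (blue) span from 27.5 for Prkg1 to 12890 for Ace, and Ptgir is the 1 gene whose TNF-Tg mean (orange) lies above its WT mean.

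Some annotated exons of these genes are shared with genes of the opposite strand, and the strand setting of the counting is not given in the sources used here. Of the exon bases of Nos3, 25.2% also lie in exons of Gm15587 and 7.12% in exons of Atg9b, which had 4, 5 and 16 and 14, 22 and 17 counts in TNF-Tg lungs. In WT lungs Gm15587 had 42, 46 and 72 counts, and Atg9b had 86, 14 and 6. These counts do not limit how many reads Nos3 gained or lost over the shared bases, so its values carry that uncertainty. Cstf2t lies within Prkg1 on the other strand, with 479 to 803 counts per lung, and shares no exon base with it (0).

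Markers of several structural cell types were lower in TNF-Tg lungs, and those of macrophages were higher. Beside the counts of each marker list stand the shares of all genes tested, 24.0% called higher and 23.4% called lower. Of 10 endothelial markers 9 were lower and 1, Emcn, was higher, and the median log2 fold change was -1.10. Their summed normalized counts were 54120 to 62790 in TNF-Tg lungs and 103400 to 118300 in WT lungs. The defining markers Pecam1 and Cdh5 fell (log2 fold changes -0.56 and -1.17), and the call for Pecam1 was lost without both replicate 1 lungs (adjusted p = 0.0817 by edgeR). Of 6 aerocyte markers all 6 were lower, with a median log2 fold change of -1.63. Of 7 general capillary markers 4 were lower and 1 was higher (median -0.47), and of 8 artery and vein markers 4 were lower (median -0.49). Of 10 smooth muscle markers 7 were lower, among them Acta2 (log2 fold change -0.90) and Myh11 (log2 fold change -1.46), with sums of 26950 to 29000 against 49210 to 53870. Of 9 pericyte markers 3 were lower and 1 was higher, and Pdgfrb did not pass (log2 fold change -0.05, above 0 without WT replicate 2), with sums of 14940 to 19010 against 19200 to 24990.

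Of 10 alveolar fibroblast markers all 10 were lower, and of 8 adventitial fibroblast markers 6. With each lung left out in turn these counts were 9 or 10 and 5 or 6. The call for Pdgfra was lost without any 1 lung other than WT replicate 3. That for Mfap5 was lost without any 1 TNF-Tg lung or WT replicate 2. Among epithelial markers, 8 of 10 for alveolar type 1 and type 2 cells and 6 of 6 for airway epithelium were lower. The alveolar count was 6 without TNF-Tg replicate 2, WT replicate 1 or WT replicate 2, and 7 without TNF-Tg replicate 3. Sftpc did not pass (log2 fold change -0.52, adjusted p = 0.0837 by edgeR, called lower by DESeq2, by limma-voom, with total counts with or without Gm42418 and with a robust dispersion). Cardiac muscle markers (6 of 6) and 5 of 6 platelet markers were lower, with Pf4 higher. Of 6 tested squamous and skeletal muscle genes 4 were lower. The count of genes called lower in this list was 1 without any 1 TNF-Tg lung, 3 without WT replicate 1, and 6 without WT replicate 2 or WT replicate 3. All 9 genes of the list, with Krt4, Krt13 and Myh2 that were not tested, had sums of 397 to 1113 in TNF-Tg lungs. In WT lungs these sums were 915 to 143200. Of 7 macrophage markers 6 were higher, with sums of 122700 to 185300 in TNF-Tg lungs and 10710 to 12020 in WT lungs, and of 7 B and T cell markers 5 were higher. No list had a gene at 0 in every lung. The part of these markers in the changes of the vasoactive genes was not tested. The relative levels that follow only set the genes beside the markers.

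Set against the mean log2 level of the 10 endothelial markers in the same lung, Edn1 and Nos3 were higher in TNF-Tg lungs, Ace was lower and Ece1 overlapped between the groups. The log2 fold changes of the markers themselves ran from -1.94 (Tek) to 0.93 (Emcn), and those of Edn1, Nos3, Ace and Ece1 lay within that range. These differences are thus from the mean or median of the list and not from each marker. Edn1 was at -1.89, -2.20 and -2.25 in TNF-Tg lungs and at -2.86, -2.64 and -3.00 in WT lungs, higher relative to these markers in every TNF-Tg lung (difference 0.72, exact permutation p = 0.1, adjusted p = 0.156 over 14 values). Nos3 was likewise higher relative to them, at -2.10, -1.49 and -2.05 against -2.17, -2.56 and -2.79 (difference 0.62, exact permutation p = 0.1, adjusted p = 0.156). Ece1 was at 0.43, 0.37 and 0.47 against 0.61, 0.30 and 0.22 (difference 0.04, exact permutation p = 0.9), a difference that changed sign without WT replicate 3 (-0.04). With the median of the marker list in place of its mean the Ece1 groups were apart (difference 0.47, exact permutation p = 0.1), so whether Ece1 differs from these markers depends on that choice. Ace was lower relative to these markers in every TNF-Tg lung, at 2.25, 2.19 and 1.99 against 2.98, 3.09 and 2.99 (difference -0.88, exact permutation p = 0.1, adjusted p = 0.156). With the median, Edn1, Nos3 and Ace kept their directions and the groups stayed apart, with differences of 1.15, 1.05 and -0.45. Ace was not set against the aerocyte markers, whose median log2 fold change was -1.63 beside -1.81 for Ace. Whether Ace fell more than the markers of capillary cells was thus not tested.

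Relative to the mean of the pericyte markers, Prkg1 was at -3.19, -3.34 and -3.31 in TNF-Tg lungs and -1.82, -2.25 and -2.80 in WT lungs (difference -0.99, exact permutation p = 0.1, adjusted p = 0.156). Relative to the smooth muscle markers its groups overlapped (difference -0.27, exact permutation p = 0.7), and the difference changed sign without WT replicate 1 (0.06). With the median of each list this was exchanged: the Prkg1 groups overlapped relative to pericyte markers (difference -0.14, exact permutation p = 0.8) and were apart relative to smooth muscle markers (difference -0.94, exact permutation p = 0.1). No direction is given for Prkg1 relative to either list. For Ednra, Pde5a and Ptgis the differences were 0.45, 0.18 and 0.41 relative to the smooth muscle markers and -0.26, -0.53 and -0.31 relative to the pericyte markers. All 6 changed sign when the median of the marker list was used in place of its mean, so no direction is given for these 3 genes. Ptgir was higher relative to both lists, by 3.95 and 3.23. Relative to the macrophage markers, a comparison added after its rise was seen, Ptgir was at -3.42, -3.46 and -3.09 in TNF-Tg lungs and -3.07, -3.21 and -3.04 in WT lungs, and the groups overlapped (difference -0.21, exact permutation p = 0.2). Relative to the summed level of these markers Ptgir was lower in every TNF-Tg lung (difference -0.80, exact permutation p = 0.1).

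**Figure D5:**
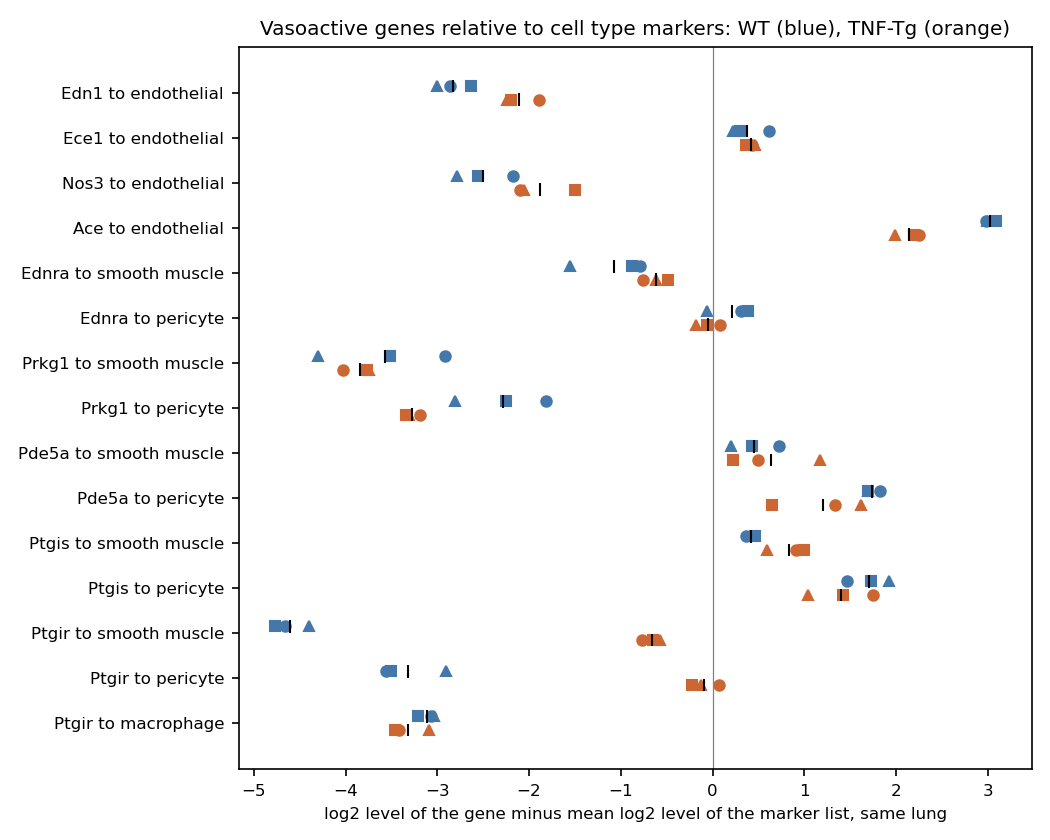
Log2 level of a vasoactive gene minus the mean log2 level of a cell type's markers in the same lung (x axis), for 15 pairs of gene and list (y axis), in WT (blue) and TNF-Tg (orange) lungs with a line at each group mean. Ptgir lies 3.95 and 3.23 higher in TNF-Tg lungs against smooth muscle and pericyte markers and overlaps between the groups against the mean of the macrophage markers, though not against their summed level.

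The genes whose pattern over the 6 lungs was most like that of each vasoactive gene were found among 13385 others by the root mean square difference of log2 CPM values centred on each gene's mean. For Ptgir these were Nlrc4 (0.0990), Tnfrsf9 (0.114) and Hk3 (0.127). For Ace they were Cav1 (0.0561), Scrn1 (0.0576) and Itga3 (0.0590), and for Ece1 they were Dip2c (0.0567), Chmp4c (0.0598) and Crim1 (0.0675). Ptgis was matched most closely by Bsg (0.0332), Bcas3 (0.0547) and Ephx1 (0.0640), and Ednra by Dpp8 (0.0683), Col1a2 (0.0701) and Atxn1l (0.0725). Prkg1 was nearest to Kcnj11 (0.0925), to the other cGMP-dependent kinase gene Prkg2 (0.112) and to Elovl7 (0.116). Pde5a was nearest to Serpinh1 (0.104), Phlda1 (0.132) and Radil (0.132). Edn1 was nearest to Pag1 (0.0503), Gata6 (0.0596) and Il1rap (0.0609), and Nos3 was close to Sgcd (0.0924) and Itpr2 (0.116). Prkg2 had 128, 122 and 122 normalized counts in TNF-Tg lungs and 484, 367 and 197 in WT lungs, the spread over WT lungs that Prkg1 also showed.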

How the data were processed

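The authors sequenced poly(A) RNA from the lungs of 3 TNF-Tg and 3 WT mice, trimmed reads with Trimmomatic, mapped them to mm10 (GRCm38.p5 in the submitters' processing notes) with STAR 2.5.2b and deposited raw counts per gene symbol and lung, without normalization. The notes give Trimmomatic 0.36, a version that differs from the one in the methods, and name featureCounts without a strand setting. The gene annotation is not given in the sources used here. All 6 columns were used, matched to mice by genotype and number. The mice are different animals.

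Counts were tested with edgeR 4.0.16 (R 4.3.3) on the 19199 genes that filterByExpr kept, scaled by TMM. The quasi-likelihood model held genotype alone, and p-values were adjusted by Benjamini-Hochberg at 0.05. The standard error is the log2 fold change divided by the square root of F. Log2 CPM used a prior count of 2. Ratios within a lung, taken on log2 of the count plus 2, and levels relative to the mean (or, as alternatives, the median or sum) of markers were compared with exact two-sided permutation tests (scipy 1.17.1). Positions and exon lengths are from GENCODE M21 and promoters from RefSeq, both on GRCm38. The programs were tested on simulated counts. Alternatives were DESeq2 1.42.0, limma-voom (limma 3.58.1), other normalizations, filters and dispersions, a replicate block, each lung left out, and both replicate 1 lungs left out, the last and the comparison of Ptgir with macrophage markers being added after the data were seen. The 9 genes and the lists of pathway and marker genes were chosen with earlier results of these data known. The genes named are the 9, the 3 called genes that rose most and the 3 that fell most in each pathway list, other forms of the main enzymes and receptors, defining markers, and the 3 genes most alike each of the 9 among genes with a proper symbol whose mean log2 CPM was 1 or more. Npr1, Pde1a, Pde3a, Emcn, Pf4, Gm42418 and Tnf, and the genes on the opposite strand, were named after their values were seen. Some genes that this rule names, and a ratio and a near neighbour that need them, are not reported here, but stay in the counts and adjustments. Between replicates of a group, chi-square over its degrees of freedom was 58.8 to 154.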

Additional observations from a re-analysis of the deposited data

How the results depend on the processing

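Across 243 refits of 14 results from fits across all genes, 232 kept the direction and the side of the threshold, or a count within 1.5 times. The 23 ratios and relative levels rest on a test that cannot pass 0.05, so only their direction can be followed: it changed in 11 of 237 recalculations. Among the 237, the replicate block of each of the 23 gives the main difference by construction. Its direction could not change. In 12 of the 76 that used another prior count or another summary of a marker list, groups that overlapped came apart or the reverse, each time with another summary. A minimum absolute log2 fold change of 1 moved the count of the 9 vasoactive genes from 7 to 3, of the endothelin list from 8 to 3, of the prostanoid list from 18 to 9 and of the angiotensin and kinin list from 11 to 6, while 22.5% of all genes tested were called at that limit against 47.4% without it. With each lung left out in turn, 5 to 7 of the 9 genes were called, and the log2 fold change ranged from -0.78 to -0.49 for Ednra and from -1.13 to -0.59 for Pde5a, both of which lost the call in some of these fits. Without both replicate 1 lungs they were -0.52 and -0.68 and not called. The calls of Ptgir, Ace, Ece1, Ptgis and Prkg1 held in all 17 alternative fits of each. Edn1 (log2 fold changes -0.35 to -0.10) and Nos3 (-0.48 to -0.03) were called in none of theirs, with lowest adjusted p-values of 0.0956 and 0.0594 by edgeR without 1 lung.

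Left out in turn, the lungs gave differences of -0.12 to 0.33 for the log2 ratio of Edn1 to Nos3, -0.0353 to 0.16 for Ece1 relative to endothelial markers, -0.63 to 0.0578 for Prkg1 and -0.087 to 0.39 for Pde5a relative to smooth muscle markers. With the median of the marker list, the differences relative to smooth muscle markers were -0.22 for Ednra, -0.49 for Pde5a and -0.26 for Ptgis, and relative to pericyte markers 0.59, 0.32 and 0.54. The cause was not tested.

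The replicate numbers name different animals. The deviations of same-numbered TNF-Tg and WT lungs had correlations across genes of -0.149, -0.004 and -0.242, so the numbers were not taken as pairs. With the replicate block 7 of the 9 genes were called, and 7686 of all genes tested against 9096. Without both replicate 1 lungs 6064 were called. The median log2 fold change of all genes lay between -0.01 and 0.04 under 6 other scalings and tools.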
